A study of Danio rerio with 12 samples.

Results

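Lens crystallin genes were followed through RNA sequencing of whole zebrafish embryos. The genes were all those whose symbol starts with crya, cryb or cryg, and 13 of the 14820 genes in the deposited tables fitted that rule. The libraries number 12, with 3 in each of 4 groups: snapc3-/- mutants in mixed background A, lsm8-/- mutants in mixed background B, tnpo3-/- mutants in mixed background C, and wild-type (wt) controls, of which 1 library came from each of the backgrounds A, B and C. The mutated genes act in RNA processing. The snapc3 product is part of the activator complex of small nuclear RNA genes, Lsm8 sits in the protein ring on U6 small nuclear RNA, and Tnpo3 imports SR splicing proteins into the nucleus. The sources used here give neither the alleles nor the developmental stage, nor whether a library holds 1 embryo or a pool, so the limma p-values measure the spread between these libraries, which may be technical. Because each mutant sits in 1 background, genotype and background cannot be told apart in these comparisons. The spread of the controls also holds any difference between the backgrounds, unlike the spread within a mutant group.

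Crystallins are the soluble proteins that fill the fibre cells of the vertebrate lens and give it transparency and refractive power. The alpha crystallins are small heat shock proteins and act as chaperones. The beta and gamma crystallins form a separate superfamily built from Greek key motifs, and beta crystallins assemble into oligomers whereas gamma crystallins stay monomeric. Fish lenses hold a large set of gamma M crystallins, which are rich in methionine and suit a hard and strongly refractive lens. In whole-embryo RNA, fewer lens cells and less crystallin RNA per lens cell cannot be told apart.

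The gene name reference lists 60 zebrafish genes of the rule, 3 starting with crya, 16 with cryb (the distantly related crybg genes included) and 41 with cryg. Of the 13 genes in the deposited tables, 1 is an alpha, 4 are beta and 8 are gamma crystallins. Junction reads were present for 10 of them, as an exon event in a skipped-exon table. The alpha crystallin was cryabb. The beta crystallins were cryba2a, cryba2b, cryba4 and crybb1l2. The gamma crystallins with an exon event were crygm2d8, crygm5, crygmx, crygmxl2 and crygn2. The remaining members, crygm2d11, crygm7 and crygmxl1, appeared in a deposited expression table and in no splicing table. No member had an event in a retained-intron table.

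Each member had 1 exon event in a table, and only cryba2a, cryba2b, crygmx and crygmxl2 were listed for every mutant. The exon of cryba4 was listed for lsm8 and tnpo3, that of crybb1l2 for snapc3, that of crygm2d8 for lsm8, and those of cryabb, crygm5 and crygn2 for tnpo3. Every event in the 3 skipped-exon tables had at least 1 skipping read somewhere in its 6 libraries. A listing therefore depended on a skipping read: cryba4, crybb1l2, crygm2d8, cryabb, crygm5 and crygn2 had 0 skipping reads in the controls and entered through reads of the mutants. For these 6 exons a control value of 100% inclusion is partly a product of how the events were listed. The reverse held for crygmx, crygmxl2 and cryba2a as listed for snapc3, and for crygmx as listed for lsm8. These had 0 skipping reads in the mutants and entered through control reads, so their inclusion could only be higher in those mutants.

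Total junction reads in the skipped-exon tables ran between 12772103 and 22999590 per library and table. The authors' deposited table gave the mutated gene a log2 fold change of -1.39 (SE 0.19) in snapc3 mutants and -1.51 (SE 0.06) in tnpo3 mutants. In the authors' deposited table for lsm8 mutants, lsm8 itself was higher, with a log2 fold change of 2.87 (SE 0.10), so its level does not check that label in the way a loss would. The listed tnpo3 exon had 152, 89 and 123 junction reads in tnpo3 mutants, against 442, 456 and 480 in controls, and the groups did not overlap. Libraries scattered widely in their crystallin reads within each group, and 1 control library held the most reads of the 3 controls for every member with an exon event.

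In controls 8 of the 10 crystallin exons were among the more heavily read of the listed exons, as far as reads per position of the spliced form can be compared between genes of different length. The gamma crystallin crygm2d8 stood highest, with 80.2 ± 17.5 scaled reads per position (SD, n = 3), followed by crygn2 with 65.6 ± 24.6. Next came cryba2b with 38.9 ± 16.4, crygmxl2 with 31.0 ± 13.3, cryba2a with 23.9 ± 12.6, cryba4 with 22.6 ± 13.8, crybb1l2 with 15.1 ± 9.37 and crygmx with 9.25 ± 6.42. The ranges of the 3 control libraries overlapped between neighbours in this order, although the means of crygn2 and cryba2b lay farther apart than either SD. These 8 exons lay between percentiles 91.5 and 98.9 of the exon levels in their tables. A listing needed a skipping read, so a rarely skipped exon was listed more readily when deeply read. Their high ranks are therefore partly a product of how the events were listed. A gap without overlap separated crygmx, the lowest of them, from crygm5, at 0.221 ± 0.0986, and the chaperone cryabb, at 0.114 ± 0.119. These last exons overlapped each other and lay at percentiles 4.67 and 1.15.

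**Figure D1:**
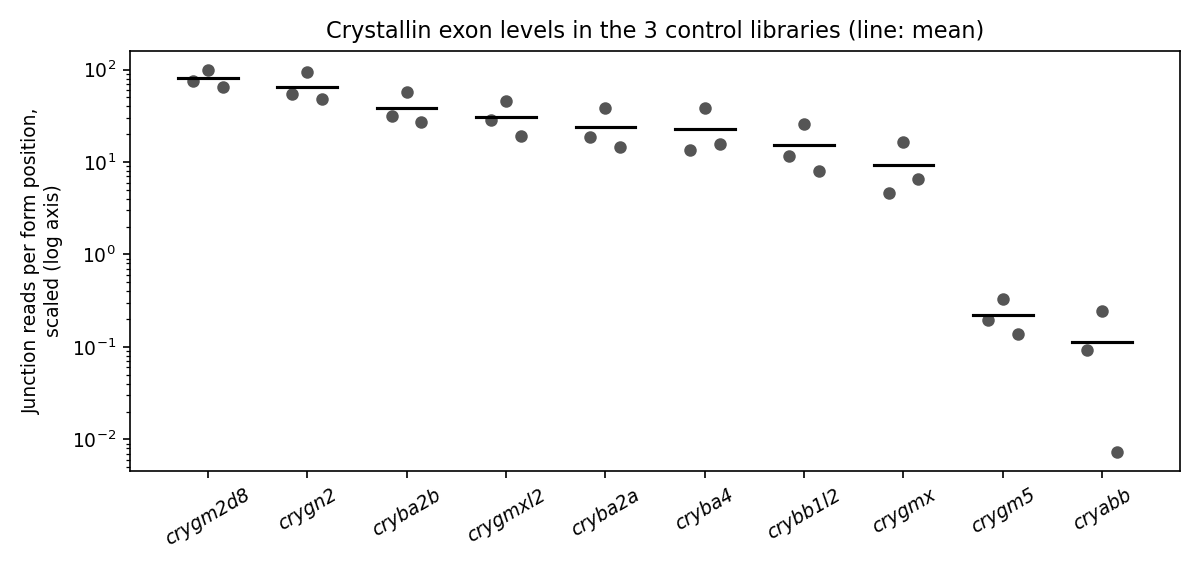
Scaled junction reads per position of the spliced form (log axis) in the 3 control libraries for the 10 crystallin genes with an exon event, ordered by their mean, which the line marks. Of these genes, 8 lie between 9.25 and 80.2 on average, while crygm5 and cryabb lie at 0.221 and 0.114.

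The exon that changed most was in crygmxl2, a gamma MX crystallin gene, and it changed in tnpo3 mutants. The event was an internal exon at chr12:32530713-32530955 (Zv9, minus strand). It is 243 bases long, which is 81 codons without a remainder. The intron before it is 2101 bases and the intron after it 474 bases. In mammalian gamma crystallin genes, each of the long exons encodes a domain made of a pair of Greek key motifs. No protein or genome sequence of the build was used here to place this exon in the zebrafish protein.

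The tnpo3 mutant libraries had 748 skipping beside 4604 inclusion reads, 596 beside 3825, and 591 beside 2448. The control libraries had 0 skipping beside 3358 inclusion reads, 4 beside 6174, and 0 beside 2630. All 3 mutant libraries were thus far from every control library, since none of the controls exceeded 0.129% skipping. After division by the length of each form, inclusion was 75.5% (exact Clopper-Pearson 95% interval 74.0 to 76.9), 76.2% (74.6 to 77.8) and 67.4% (65.4 to 69.4) in tnpo3 mutants. These intervals cover counting error only, and the library with the lowest inclusion lay outside the intervals of the other two. Inclusion averaged 73.1% ± 4.88 in tnpo3 mutants and 99.96% ± 0.0747 in controls (SD, n = 3 each), a difference of -26.9 percentage points. The log2 ratio of inclusion to skipping differed by -9.38 (SE 0.85; limma, Benjamini-Hochberg adjusted p = 1.55e-06). The difference lay between -28.5 and -24.1 points when any 1 library was left out. In the authors' deposited table both the p-value and the FDR of this event are listed as 0.

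In the other mutants the exon was skipped in few reads or none. Of the reads of the crygmxl2 event, 1935 of 12812 skipped the exon in tnpo3 mutants, 0 of 14938 in snapc3 mutants, which allows up to 0.0201% of reads, and 3 of 7626 in lsm8 mutants, against 4 of 12166 in controls. Against snapc3 mutants, inclusion in tnpo3 mutants differed by -26.9 points, and against lsm8 mutants likewise by -26.9 points (limma contrasts over shared events, adjusted p = 0.000155 and 0.000326). Both contrasts met the criteria of a call, which 1.77% of all shared exons did in the lower direction against snapc3 mutants and 1.45% against lsm8 mutants. By size, the crygmxl2 exon ranked 173 of the 560 exons called lower in tnpo3 mutants, so larger losses occurred elsewhere in the transcriptome. By reads it ranked 1 of 560.

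**Figure D2:**
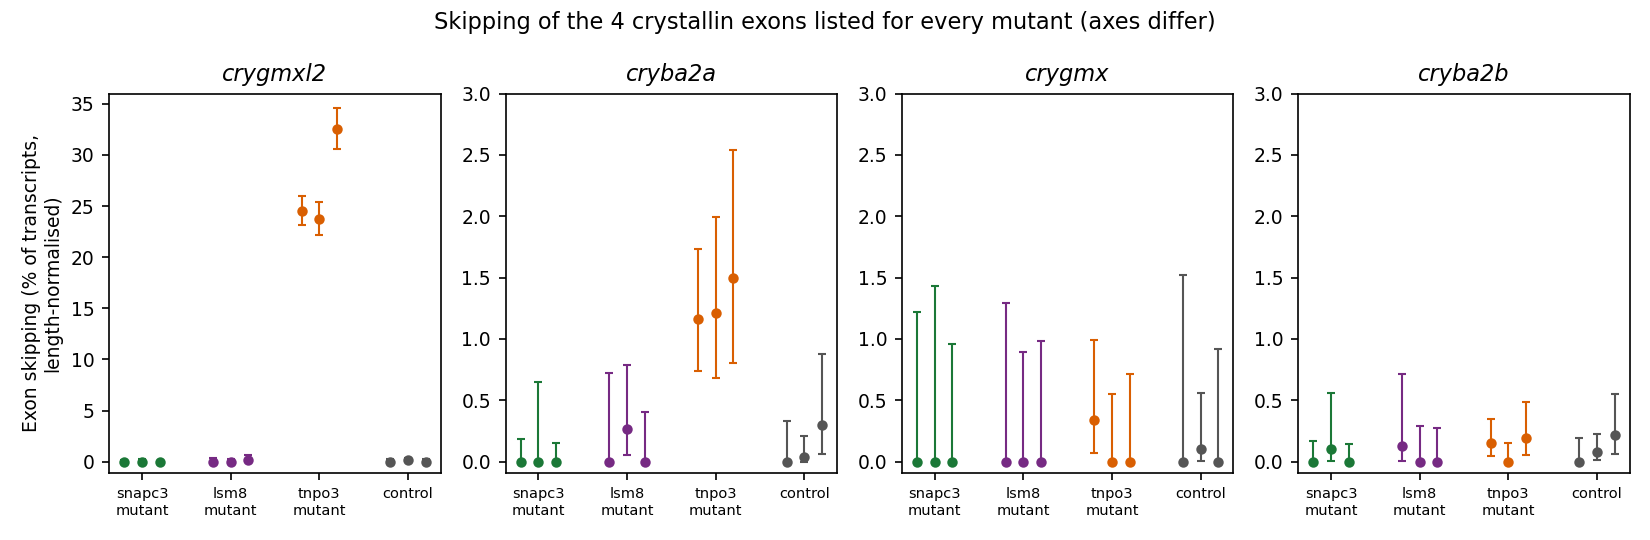
Exon skipping, in percent after length normalisation, in each library for the crystallin exons listed for every mutant, with exact 95% binomial intervals for counting error. The axis of crygmxl2 reaches 36 and the others 3; crygmxl2 lies at 23.8 to 32.6 in tnpo3 mutants, against at most 0.129 in controls, and cryba2a reaches 1.499 in tnpo3 mutants.

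The total reads of crygmxl2 overlapped between tnpo3 mutants and controls, and the form without the exon made up part of them in the mutants. Per position of each form, tnpo3 mutants had 11.5, 9.31 and 9.65 scaled reads of the skipped form beside 35.5, 29.9 and 19.98 of the form with the exon. The controls had 0, 0.0588 and 0 of the skipped form beside 28.2, 45.4 and 19.3 of the form with the exon. The form with the exon overlapped between the groups. Summed junction reads of crygmxl2 were 5226, 4389 and 3175 after scaling in tnpo3 mutants, against 3644, 5867 and 2519 in controls, 0.14 on the log2 scale (SE 0.35; limma, adjusted p = 0.866). The 95% interval of this log2 fold change was -0.71 to 1.005. A sum of reads counts the skipped form less, since its form length is 60 against 120 for the form with the exon. Per position, both forms together came to 47.0, 39.2 and 29.6 in tnpo3 mutants, against 28.2, 45.4 and 19.3 in controls. These groups overlapped, and the difference per position was not tested.

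**Figure D3:**
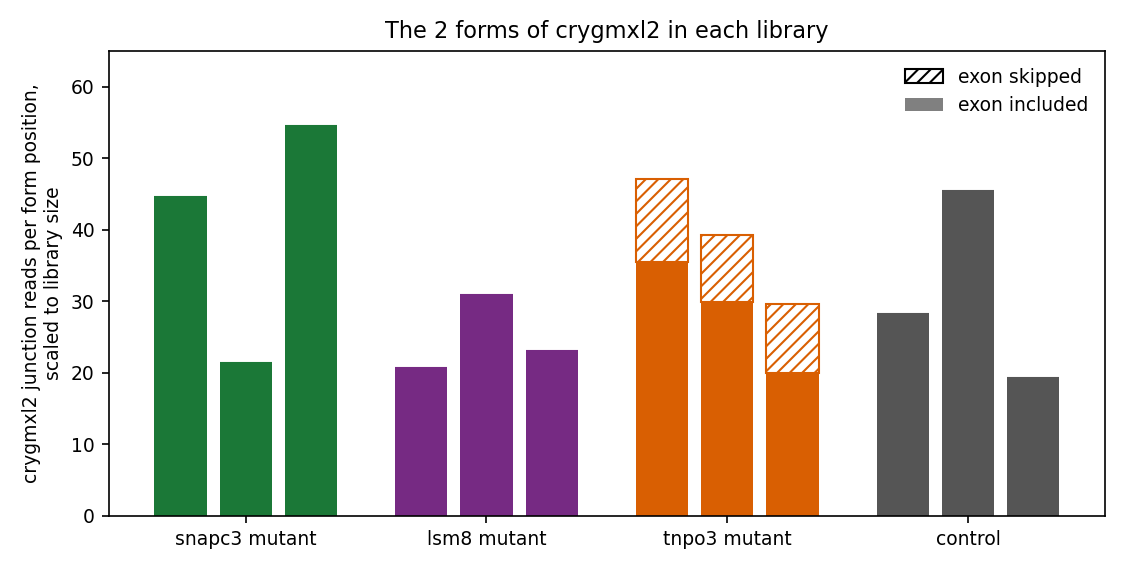
Scaled junction reads of crygmxl2 per position of the form with the exon (filled) and without it (hatched), stacked, in each of the 12 libraries. The hatched part is 9.31 to 11.5 in tnpo3 mutants, against at most 0.0588 in the controls, too small to see in the other groups.

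The neighbouring crygmx gene has an exon of the same length on the same strand, at chr12:32528160-32528402 (Zv9), and 997 bases separate the nearest listed exons of both genes. Its introns are 318 bases before and 2347 bases after the exon. Skipping reads of crygmx numbered 3, 0 and 0 among 1876, 1415 and 1095 reads in tnpo3 mutants, against 0, 1 and 0 among 512, 2121 and 849 in controls. Inclusion averaged 99.9% ± 0.196 in tnpo3 mutants and 99.97% ± 0.058 in controls (limma, adjusted p = 0.923), so this paralogue showed no skipping beyond a few reads at a depth of 4386 reads. No test set the 2 exons against each other.

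A second and far smaller difference in tnpo3 mutants lay in cryba2a, a beta A2 crystallin gene, at chr6:13692600-13692741 (Zv9, minus strand). The exon has 142 bases, which is not a multiple of 3. It had 23, 15 and 13 skipping reads in tnpo3 mutants, against 0, 1 and 3 in controls. Each mutant library was above every control. Inclusion averaged 98.7% ± 0.182 in tnpo3 mutants and 99.9% ± 0.164 in controls, a difference of -1.18 points (limma, adjusted p = 0.00608). This passed the p threshold and not the minimum difference of 10 points that a call required, and the authors' deposited table gives it an FDR of 0.548. Leaving out 1 tnpo3 mutant library raised the adjusted p to 0.0588 in limma, and the range over all such fits began at 0.000786.
Skipping reads of cryba2a were 0 of 9871 in snapc3 mutants and 3 of 5032 in lsm8 mutants. The contrasts of tnpo3 mutants with snapc3 and with lsm8 mutants were -1.29 and -1.20 points (limma, adjusted p = 0.0066 and 0.0417). Neither reached the 10 points that a call required.

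Its duplicate cryba2b, at chr9:11833933-11834074 (Zv9, minus strand), has an exon of the same 142 bases. Skipping reads of cryba2b were 5, 0 and 4 in tnpo3 mutants, against 0, 3 and 4 in controls, and the groups overlapped. The difference of -0.02 points had an adjusted p of 0.948 in limma.

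The exon of crygm5, a gamma M crystallin, was also called in tnpo3 mutants, on few reads. It lies at chr9:23384769-23385065 (Zv9, minus strand) and has 297 bases. There were 3 skipping reads of 14, 0 of 3 and 1 of 6 in tnpo3 mutants, against 0 of 23, 0 of 45 and 0 of 19 in controls. Inclusion averaged 78.7% ± 18.7 in tnpo3 mutants and 100% in controls, a difference of -21.3 points. The limma test was made on the log2 ratio of inclusion to skipping, which differed by -3.65 (SE 0.78, adjusted p = 0.00457). In a library with 0 skipping reads that ratio follows read depth through the pseudocount, and crygm5 had fewer reads in the mutants. The p-value therefore does not measure the difference in points alone, and the part of depth in it was not tested. One mutant library with 3 reads was at 100%, so the groups overlapped. The 87 control reads together allow up to 3.45% of reads to skip the exon, a share taken before division by form length. In single control libraries that limit lay between 6.67% and 15.8% of reads. The authors' deposited table gives the event an FDR of 1, and a minimum of 20 reads per library removes it from the test.

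The remaining exons in tnpo3 mutants lie on the plus strand at chr10:45549866-45549984 in cryba4, chr24:43050103-43050248 in crygn2 and chr5:58993070-58993192 in cryabb (Zv9), and they held few skipping reads. There were 2 among 9818 reads of cryba4, 1 among 29235 of crygn2 and 1 among 66 of cryabb in tnpo3 mutants, against 0 among 8316, 0 among 25861 and 0 among 45 in controls. None of these 3 exons passed the limma test (adjusted p between 0.691 and 0.828). In all, 2 of the 8 crystallin exons tested in tnpo3 mutants were called lower and 0 higher, where 2.07% of all 27050 exons tested were called lower. Without the minimum difference there were 3 of 8, where 6.06% of all exons were called lower. These counts cannot show an excess of lower calls among crystallin exons. The exons of cryba4, cryabb, crygm5 and crygn2 were listed through mutant reads only, so their inclusion could only be lower in the mutants. The called crygm5 exon is among them.

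In snapc3 mutants no crystallin exon was called, out of 5 tested, where 0.69% of all exons were called in either direction. In libraries labelled lsm8 mutant none was called out of 6 tested, where 1.16% of all exons were called. The tested exons had at most 2 skipping reads in any snapc3 mutant library and at most 3 in any lsm8 mutant library. The deeply read crygm2d8 exon, at chr9:23168511-23168753 (Zv9, minus strand) and again 243 bases long, had 1 skipping read among 16194 in lsm8 mutants and 0 among 31448 in controls. The crybb1l2 exon, at chr1:44898067-44898199 (Zv9, plus strand), had 2 among 5649 reads in snapc3 mutants and 0 among 5969 in controls.

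Summed junction reads, used as a measure of each gene's spliced RNA, were called for 1 crystallin gene in 1 mutant. That gene was crygm2d8 in lsm8 mutants, with 5277, 6495 and 6191 scaled reads, against 8832, 11578 and 7582 in controls. All mutant libraries lay below all controls. The means were 5988 ± 634 in lsm8 mutants and 9331 ± 2044 in controls (SD, n = 3 each), -0.62 on the log2 scale (SE 0.15; limma, adjusted p = 0.0317). The call was lost when any 1 library was left out except 1 control, with adjusted p between 0.0557 and 0.124 in those limma fits. RefSeq places 32 gamma M crystallin genes on chromosome 9, and if copies are near-identical, their reads could be divided among them. No sequence was compared, so the value of crygm2d8 by itself is uncertain.
In libraries labelled lsm8 mutant 1 of 6 crystallin genes was called, where 11.6% of all 10069 genes were called in either direction.

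The beta crystallin cryba2b also lay below the controls in lsm8 mutants without passing the test. It had 1847, 3106 and 2571 scaled reads in lsm8 mutants, against 3700, 6707 and 3151 in controls, -0.80 on the log2 scale (SE 0.35; limma, adjusted p = 0.221). Groups did not overlap, with the mutants lower, for 2 of 6 crystallin genes, where this held for 16.9% of all genes. The log2 fold changes of the other 4 were -0.52 for cryba2a, -0.27 for crygmxl2, -0.06 for crygmx and -0.04 for cryba4, and their groups overlapped. The median over the 6 was -0.39, beside 0.01 over all genes tested. It depended on the control library with the most crystallin reads: without it the median was -0.03, and cryba4, crygmx and crygmxl2 stood at 0.42, 0.47 and 0.05. Without 1 of the lsm8 mutant libraries the median was -0.19, and over all fits with 1 library left out it lay between -0.66 and -0.03. With scaling to total reads in place of median ratios, the median of all genes moved to 0.11 in lsm8 mutants and -0.11 in snapc3 mutants, and crygmx and cryba4 in lsm8 mutants turned to 0.04 and 0.06, cryba2a in snapc3 mutants to -0.08. That scaling also set the share of lower genes among all calls at 43.5% in lsm8 mutants and 77.8% in snapc3 mutants, against 61.1% and 57.6% with median ratios.

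In snapc3 mutants 0 of 5 crystallin genes were called, where 5.48% of all 10295 genes were. Values of cryba2a were 3685, 1232 and 5081 scaled reads in snapc3 mutants, against 2372, 4866 and 1865 in controls. The lowest and the highest of the 6 libraries were both mutants. The log2 fold change of cryba2a was 0.03 (SE 0.70), and its 95% interval reached from -1.80 to 1.87. The other members had log2 fold changes of 0.35 (crygmxl2), -0.06 (crybb1l2), -0.37 (cryba2b) and -0.49 (crygmx), with SEs between 0.46 and 0.75. The median over the 5 was -0.06, and with 1 library left out it lay between -0.48 and 0.55, so that its sign depended on single libraries.

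In tnpo3 mutants 0 of 8 crystallin genes were called, where 3.24% of all 11493 genes were. The abundant gamma crystallin crygn2 had 11969, 10151 and 7055 scaled reads in tnpo3 mutants, against 7089, 12124 and 6287 in controls (log2 fold change 0.22, SE 0.31). The lens beta crystallins cryba2a, cryba2b and cryba4 had log2 fold changes of -0.15, 0.11 and 0.35, and crygmx 0.56. The groups overlapped for all 5 of these genes.
The low crygm5 was the exception in range: it had 13.7, 2.98 and 6.27 scaled reads in tnpo3 mutants, against 25.0, 42.7 and 18.2 in controls, so all mutants lay below all controls. Its log2 fold change of -1.98 (SE 0.65) did not pass the limma test (adjusted p = 0.146). Groups did not overlap, with the mutants lower, for 1 of 8 crystallin genes, where this held for 13.1% of all genes. For cryabb, with 22.5, 17.9 and 26.1 scaled reads in tnpo3 mutants and 11.9, 31.3 and 0.96 in controls, the log2 fold change was 1.43 (SE 1.03), and the groups overlapped. That value was 0.17 without the control library that held 1 read and 2.39 without the control library that held 33. The median over the 8 was 0.18, and with 1 library left out it lay between -0.03 and 0.49.

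**Figure D4:**
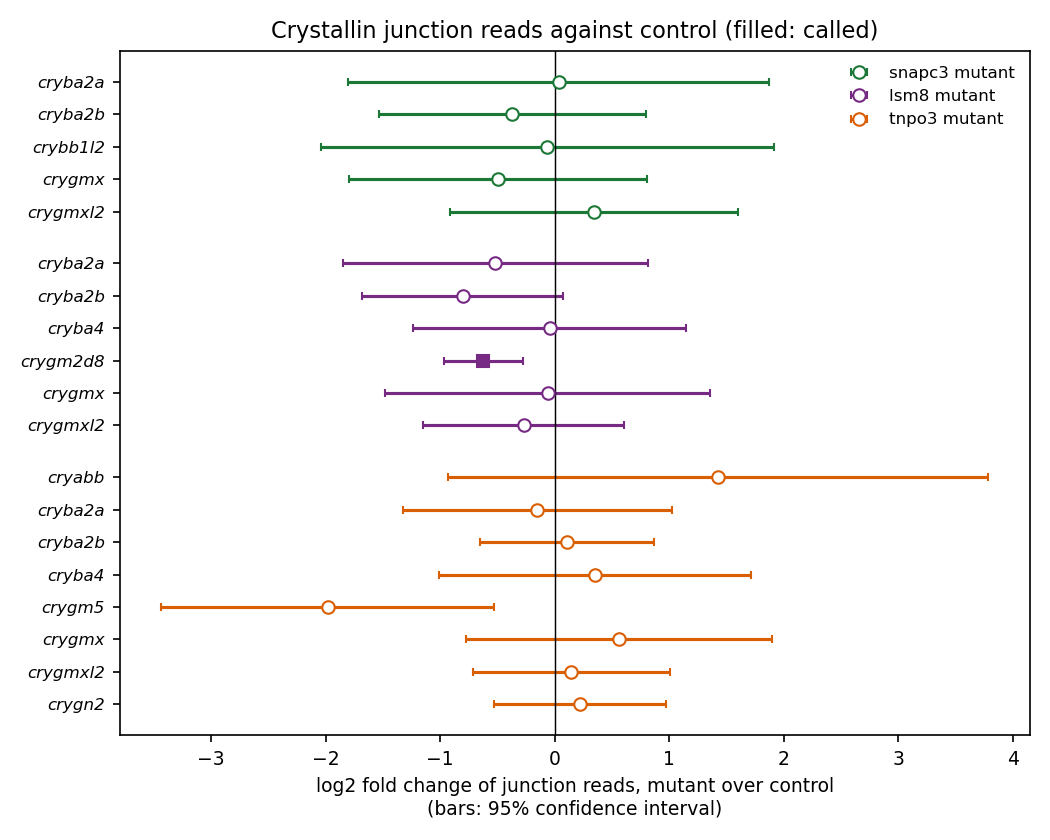
The log2 fold change of summed junction reads, mutant over control, with its 95% confidence interval, for each of the 19 tests of a crystallin gene. The one filled symbol is crygm2d8 in lsm8 mutants at -0.62, and the interval of crygm5 in tnpo3 mutants excludes 0 before adjustment, at -3.44 to -0.53.

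Set on 1 scale over all 12 libraries, the 4 genes listed for every mutant made up 1682, 802 and 2184 scaled reads per 1000000 junction reads in snapc3 mutants, 809, 1383 and 1013 in lsm8 mutants, 2086, 1550 and 1238 in tnpo3 mutants, and 1260, 2376 and 1019 in controls. The ranges of all groups overlapped. The highest library held 2.72 times the lowest in snapc3 mutants, 1.71 times in lsm8 mutants, 1.68 times in tnpo3 mutants and 2.33 times in controls. For single genes the spread within a group reached 4.13-fold, for cryba2a in snapc3 mutants.
Of the 12 limma contrasts of 1 mutant with another for these 4 genes, none passed the threshold, where 18.8% of all 7443 genes did for lsm8 against snapc3, 13.1% for tnpo3 against snapc3 and 17.0% for tnpo3 against lsm8 mutants. The smallest adjusted p was 0.141, for crygmx in tnpo3 against snapc3 mutants (log2 fold change 1.08, SE 0.43). At an unadjusted level the 95% interval of that contrast, 0.10 to 2.05, excluded 0, and so did that of cryba2b in tnpo3 against lsm8 mutants, 0.02 to 1.82 (adjusted p = 0.154).

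**Figure D5:**
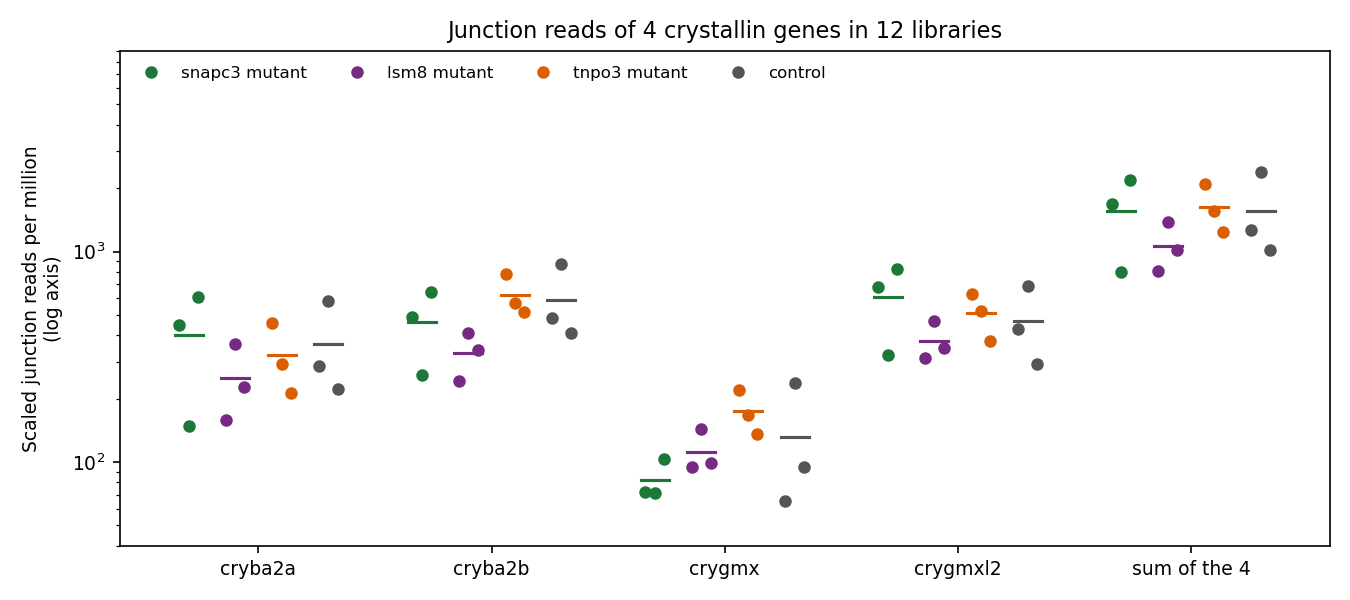
Scaled reads per 1000000 junction reads (log axis) of cryba2a, cryba2b, crygmx, crygmxl2 and their sum in the 12 libraries, with the group mean as a line. The sums run between 802 and 2184 in snapc3 mutants, 809 and 1383 in lsm8 mutants, 1238 and 2086 in tnpo3 mutants, and 1019 and 2376 in controls.

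The 4 crystallin genes listed for every mutant varied together from library to library, to different degrees. Over the 12 libraries, log2 levels of crygmxl2 and cryba2a had a Pearson correlation of 0.94 and those of cryba2a and cryba2b one of 0.85. The pair crygmx and crygmxl2, which are neighbours on chromosome 12, had the lowest correlation, at 0.41. The correlation of crygmx was 0.47 with cryba2a and 0.67 with cryba2b, and that of crygmxl2 with cryba2b was 0.80. The levels of all 4 genes come from the same libraries, which span all groups and backgrounds. These correlations are a description of these libraries. Among 7443 genes, the 5 whose levels were most like the summed crystallin level were hmgn3 (Pearson 0.92), lim2.4 (0.91), lctla (0.88), NSMCE2 (0.88) and abhd2b (0.87). Of these, lim2.4 encodes a lens membrane protein and lctla a lactase-like protein of the lens.

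Other genes of the lens and eye gave a background to these values. Of all genes tested, 325 were called lower and 239 higher among 10295 in snapc3 mutants. The counts were 711 and 453 among 10069 in lsm8 mutants, and 253 and 119 among 11493 in tnpo3 mutants. No list was tested against these shares. No gene of a list of lens structural and membrane proteins was called in any mutant, out of 5 tested in snapc3, 5 in lsm8 and 6 in tnpo3 mutants, with median log2 fold changes of -0.34, -0.53 and 0.30. In that list the smallest adjusted p were those of lctla in lsm8 mutants (-1.38, limma adjusted p = 0.142) and of lim2.1, which encodes a lens membrane protein, in snapc3 mutants (-0.66, adjusted p = 0.22). Of the lens regulators, 2 of 6 fell in snapc3 mutants, which were pax6a (-0.85, limma adjusted p = 0.016) and pax6b (-0.96, adjusted p = 0.0159), both encoding the eye transcription factor Pax6. The other lens regulators tested there were not called, with celf1 at 0.07, pitx3 and TDRD7B at 0.03, and tfap2a at -0.32. In lsm8 mutants 1 of 6 fell, pax6b (-0.51, limma adjusted p = 0.0168), and in tnpo3 mutants 0 of 7.
Photoreceptor genes were lower more widely, at 4 of 7 in snapc3, 6 of 7 in lsm8 and 7 of 9 in tnpo3 mutants, with gnat1, the rod transducin alpha subunit, at -1.48 in snapc3 and -1.69 in tnpo3 mutants. In skeletal muscle genes, 7 of 13 rose in snapc3 mutants, 3 of 22 rose in lsm8 mutants and 1 of 17 fell in tnpo3 mutants. The part of these shifts in the crystallin values was not tested. In the cornea and skin list 1 of 8 genes rose in snapc3, 0 of 9 changed in lsm8 and 1 of 9 rose in tnpo3 mutants. No pigment epithelium gene was called, out of 2, 2 and 5 tested. Among small heat shock proteins other than alpha crystallins, 0, 1 and 1 genes were tested and none was called. Among other genes named crystallin, 1 was called, cryl1 in lsm8 mutants (-0.53, limma adjusted p = 0.0277), out of 4, 2 and 2 tested.

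The deposited expression tables, which list only genes at an adjusted p under 0.05 whose log2 fold change reaches 1 in size, held 3 crystallin genes, all lower in the mutant. For snapc3 mutants, the authors' deposited table gave the gamma MX crystallin crygmxl1 a log2 value of -2.98 (SE 0.38, adjusted p = 0.0257 by the authors' limma) and the gamma M crystallin crygm7 one of -2.27 (SE 0.38, adjusted p = 0.0449). Both are of low abundance there, with average log2 expression of -2.73 and -5.02. In the authors' deposited table for lsm8 mutants, the value for crygm2d11 was -1.02 on the log2 scale (SE 0.19, adjusted p = 0.0399 by the authors' limma), and its average log2 expression was 6.28. RefSeq places crygm2d11, crygmxl1 and crygm7 on chromosome 9, as it does crygm2d8. No sequence was compared, so whether reads were divided among similar copies was not tested, and the value of each is uncertain by itself. The authors' deposited table for tnpo3 mutants lists no crystallin gene. The share of all genes listed as lower in the authors' deposited table was 0.96% for snapc3, 1.26% for lsm8 and 0.228% for tnpo3 mutants, of 33737 genes. Of the genes listed, 324 of 464 were lower for snapc3 and 424 of 851 for lsm8 mutants. The shared direction of these 3 members is therefore no result about crystallin genes in particular. These 3 members have no junction reads in the splicing tables, and absence of another member from an expression table does not show that its level stayed the same.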

How the data were processed

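The submitters' processing notes name, for build Zv9, the aligner TopHat2 (2.0.13) over Bowtie2 (2.2.3), the counter featureCounts (1.4.5-p1) and, for testing, limma (3.26.3). The authors deposited log2 fold changes, a moderated t score and p-values per gene, only for genes past their thresholds, and the SE printed is the fold change divided by that score. They also deposited junction reads of skipped exons and retained introns for 3 control and 3 mutant libraries per table, with p-values and FDR. Controls were identified by counts identical across tables. The number of genes tested, 33737, was inferred from ratios of deposited p-values.

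The 13 members, the gene lists and the tests were chosen with earlier results of these data known. Members were all genes matching the symbol rule, and the gene name reference matched 12 of 13 identifiers. All member exons tested are given, those called or with most reads in most detail, and genes named from a list were among the 4 of that list with the smallest adjusted p in any mutant. For lens regulators, every gene tested in snapc3 mutants is named. Reads of inclusion and skipping were summed per gene, scaled by median-of-ratios size factors, and tested on log2 in limma 3.58.1 (R 4.3.3, trend and robust options) with a pseudocount of 0.5, at a mean of at least 10 reads. Exon inclusion was tested as the log2 ratio of length-normalised reads, with calls at an adjusted p below 0.05 and 10 percentage points. Without skipping reads this ratio follows read depth through the pseudocount, so its p-values do not measure the difference in points alone. Inclusion reads can enter several events of a gene, so sums are not independent molecules. Mutant-against-mutant exon contrasts were added after the data were seen. Alternatives were other scalings, read minimums, pseudocounts and call rules, voom weights, the deposited FDR, a fit of all groups and each library left out. Scripts were tested on simulated data. The simulated exons had a minimum share of skipping above that of most crystallin exons, so that range was not tested. Gene neighbours on RefSeq come from assembly GRCz12tu, and no sequence was used.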

Additional observations from a re-analysis of the deposited data

Results flagged for a closer look

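The loss of the crygmxl2 exon differed between mutants by a direct test. Inclusion in tnpo3 mutants was -26.95 percentage points from that in snapc3 mutants and -26.88 points from that in lsm8 mutants (limma contrasts, adjusted p = 0.000155 and 0.000326). All 3 tnpo3 mutant libraries were below all libraries of both other mutants.

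The small loss of the cryba2a exon differed in the same direction. Its contrast was -1.29 points for tnpo3 against snapc3 mutants and -1.20 points for tnpo3 against lsm8 mutants (limma, adjusted p = 0.0066 and 0.0417). These tests of cryba2a rest on 51 skipping reads in tnpo3 mutants, 0 in snapc3 mutants and 3 in lsm8 mutants.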

How the results depend on the processing

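No paired analysis was possible because the 3 values of a group share a cell and are not matched to replicate numbers. No member had an intron event, so the intron alternatives were not run. Of the values of single members under the alternatives, 555 kept their side of the threshold, 7 calls were lost and 1 was gained. The main fits called only 1 gene value and 2 exon values of members, so most of the 555 were uncalled values that stayed uncalled. A minimum fold change could only remove calls. Direction was also kept in 518 of the 555 and turned in 37, none of them called: 34 with 1 library left out and 3 with total scaling, over 17 results. The 7 were crygm2d8 in lsm8 mutants (6) and the crygm5 exon under the deposited FDR, and the gain was the cryba2a exon without a minimum difference.

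Genes called for junction reads numbered 234, 358 and 149 in snapc3, lsm8 and tnpo3 mutants with a minimum log2 fold change of 1, and 2648 for lsm8 against snapc3 mutants with total scaling. With 1 library left out they ranged over 263 to 665, 712 to 1300 and 106 to 296, and for the mutant pairs 838 to 1084 (lsm8, snapc3) and 558 to 779 (tnpo3, snapc3). Crystallin genes called in lsm8 mutants were 0 with that minimum fold and 0 over shared events, which lack crygm2d8, and 0 to 1 with 1 library left out. Exons called numbered 584, 968 and 1693 without a minimum difference, 316 and 474 in snapc3 and lsm8 mutants with the deposited FDR, and 55, 90 and 249 over shared events. With 1 library left out they ranged over 126 to 242 in snapc3 and 148 to 417 in lsm8 mutants. Crystallin exons called in tnpo3 mutants were 1 with a minimum of 20 reads, 1 with the deposited FDR and 1 over shared events. Each time the exon was that of crygmxl2. The minimum of 20 reads removes crygm5 from the test and the shared events lack it, so its call could not be kept there. The mean summed level was 2354, 1621 and 2467 in snapc3, lsm8 and tnpo3 mutants and 2352 in controls when 1 event per gene set both the level and the total. At an adjusted p below 0.01 the authors' deposited tables hold 0 crystallin genes for snapc3 and 0 for lsm8 mutants. The share of all listed genes passing that threshold was not counted, so these counts are no result about crystallin genes in particular.

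Depth limits cryabb and crygm5, with 66 and 23 exon reads in tnpo3 mutants and 45 and 87 in controls.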
